A study of Solanum tuberosum with 12 samples.

Results

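The transcripts described here are the 3 isoforms of *StRIK* that the silencing fragment of the study matches, PGSC0003DMT400064729, PGSC0003DMT400064730 and PGSC0003DMT400064731. They were taken by identifier from the 54416 transcripts of the Group Phureja transcriptome, and all 3 had values in all 12 libraries. PGSC0003DMT400064730 is the representative transcript of the locus. Another *StRIK* transcript, PGSC0003DMT400064735, lies outside the silencing fragment and was set beside them. The libraries came from tuber periderm (the skin, which holds the corky phellem and the phellogen beneath it) of *Solanum tuberosum* cv. Désirée grown in soil, 3 from untransformed plants (Wild type) and 3 from each of 3 lines with *StRIK* silenced by RNAi (9, 12 and 47). All 3 lines carry the same hairpin construct in a Désirée background. Each line descends from 1 transformation event, so the insertion site differs between lines and does not vary within one. The lines were kept after an RT-qPCR screen of transformants, in leaves and tuber periderm, for a lowered *StRIK* level. A lower *StRIK* level is therefore what these lines were chosen for, and the tests of level below are not independent evidence of it. The study also repeated the RT-qPCR in periderm of these 3 lines and reported *StRIK* silencing there again. The Wild type carries no construct, and no library from plants with an empty vector was analysed here. Periderm identity was not checked against marker genes, because no table used here pairs their names with these transcript identifiers.

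RIK (RS2-INTERACTING KH PROTEIN) is a protein with a KH domain, a fold that binds single-stranded RNA or DNA. It was described in maize as a partner of ROUGH SHEATH2, the orthologue of Arabidopsis Asymmetric leaves1, a MYB-type repressor that keeps class I KNOX homeobox genes silent in developing leaves. A hairpin RNA is cut by Dicer-like enzymes into small interfering RNAs, which guide an Argonaute protein to matching transcripts. A transcript that lacks the matching stretch is not expected to be cut by this route.

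The stretch stated as the silencing fragment is shown because it defines which isoforms are members. In the genomic sequence of *StRIK* that accompanies the study, matched to the Group Phureja protein, the coding sequence comprised 1779 nt in 12 exons over 7124 nt and encoded 592 residues. The gene lies on chromosome 2, on the minus strand. The stated positions covered 246 nt of this coding sequence, namely the last 21 nt of exon 8 (94 nt long), all 118 nt of exon 9 and the first 107 nt of exon 10 (517 nt long), and its GC content was 45.5%. Exon 9 is in capitals, and the flanking exons are in lower case. The bases are those of the genomic sequence read in the coding direction, so the fragment cloned from Désirée may differ from them. The fragment was placed only by the coding positions that the study states. Neither of the cloning primers listed for the silencing construct matched this genomic sequence, so the placement could not be checked against them.
*StRIK* coding sequence at the stated positions of the RNAi fragment: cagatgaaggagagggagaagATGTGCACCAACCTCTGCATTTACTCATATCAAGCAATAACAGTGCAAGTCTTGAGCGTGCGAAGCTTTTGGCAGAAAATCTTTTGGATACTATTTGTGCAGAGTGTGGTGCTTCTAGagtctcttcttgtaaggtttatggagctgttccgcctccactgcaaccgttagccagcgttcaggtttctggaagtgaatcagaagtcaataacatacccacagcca

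The values are effective counts, that is, reads assigned to each transcript by eXpress and corrected for fragment length and bias. Isoforms of 1 gene share sequence, so a read that fits several of them is divided by estimation. The value of 1 isoform therefore depends on the others. The sum of the 3 members still depends on how reads were divided between them and PGSC0003DMT400064735, and on the correction applied to each isoform. Total effective counts were between 18650236 and 21585122 per library. Levels are given as CPM, counts relative to library size, after TMM scaling, a method that sets library sizes from the bulk of the transcripts. Neither unit is divided by transcript length, so a difference in level between isoforms mixes abundance with length. In the deposited library names, all 3 Wild type libraries and 2 of the 3 line 47 libraries carry the tag L6 and the other 7 RNAi libraries carry L7. What the tag stands for was not stated in the sources used here.

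All 3 targeted isoforms were lower in each of the 9 RNAi libraries than in any of the 3 Wild type libraries. Their order in the Wild type was PGSC0003DMT400064731 at 31.6 ± 0.483 CPM, PGSC0003DMT400064730 at 27.0 ± 2.31 CPM and PGSC0003DMT400064729 at 26.0 ± 1.29 CPM (mean ± SD, n = 3). PGSC0003DMT400064730 and PGSC0003DMT400064729 did not differ beyond their spread. In the 9 RNAi libraries the same isoforms stood at 61.8%, 54.3% and 57.6% of their Wild type means. Of the 38364 transcripts tested, 0.558% were lower in every RNAi library than in every Wild type library. In tissue samples such as these, fewer cells that express a gene and less of its RNA per cell cannot be told apart.

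The representative isoform PGSC0003DMT400064730 was at 29.6, 26.1 and 25.3 CPM in Wild type replicates 1 to 3. It was at 15, 20.2 and 16.1 CPM in line 9, at 15.8, 11.7 and 11.3 CPM in line 12 and at 11.4, 14.0 and 16.5 CPM in line 47. The highest RNAi value, line 9 replicate 2, stayed below the lowest Wild type value, and the 3 lines overlapped one another. Its mean in the RNAi libraries was 12.3 CPM under that of the Wild type, with a 95% interval of the difference from −16.3 to −7.69 CPM (exact permutation test, two-sided p = 0.00909, n = 9 and 3). This p is the smallest that 9 against 3 libraries allow.

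PGSC0003DMT400064729 was at 27.5, 25.1 and 25.5 CPM in the Wild type. It was at 13.7, 23.5 and 20.2 CPM in line 9, at 15.7, 12.9 and 10.2 CPM in line 12 and at 9.40, 15.8 and 13.7 CPM in line 47. Line 9 replicate 2 kept 90.3% of the Wild type mean and line 47 replicate 1 kept 36.1%, the widest span of the 3 isoforms. Its RNAi libraries, pooled over the lines, had a coefficient of variation of 30.2%, against 4.94% in the Wild type. Within lines 9, 12 and 47 the coefficient was 26%, 21.4% and 25.2%. The difference of the means was −11.0 CPM (95% interval −16.1 to −4.44, exact permutation test, two-sided p = 0.00909, n = 9 and 3).

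PGSC0003DMT400064731 has a shorter match to the fragment than the other members. It was at 31.1, 32.0 and 31.8 CPM in the Wild type. It was at 16.6, 28.5 and 24.6 CPM in line 9, at 19.6, 17.7 and 16 CPM in line 12 and at 14.6, 19.7 and 18.7 CPM in line 47. It was the isoform with the most even Wild type values, and again line 9 replicate 2 was the RNAi library nearest to them. The difference of the means was −12.1 CPM (95% interval −16.3 to −4.98, exact permutation test, two-sided p = 0.00909, n = 9 and 3). In these exact tests each library of a line counts as a separate sample. They compare lines that were selected for low *StRIK* with an unselected Wild type.

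**Figure D1:**
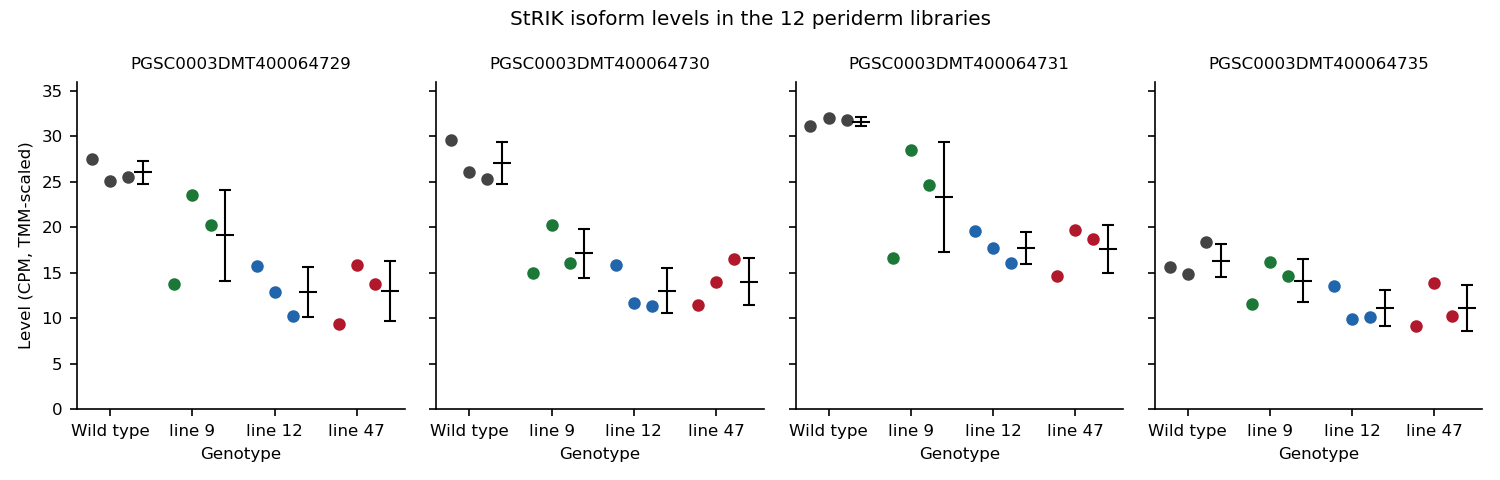
Level of the 3 targeted *StRIK* isoforms and of PGSC0003DMT400064735 in CPM after TMM scaling. Each point is 1 library, in the order of replicates 1 to 3, and the black dash with bars is the mean ± SD of 3 libraries; all RNAi points of the targeted isoforms lie below the Wild type points, with line 9 replicate 2 the nearest to them.

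The lines were ordered alike for each isoform in that line 9 had the highest mean. PGSC0003DMT400064730 averaged 63.3% of the Wild type in line 9, 48.0% in line 12 and 51.7% in line 47. PGSC0003DMT400064729 averaged 73.5%, 49.5% and 49.8%, and PGSC0003DMT400064731 averaged 73.5%, 56.1% and 56%, in the same order. Lines 12 and 47 did not differ beyond their spread for any of the 3. Within single lines, the share of all transcripts tested with every library below every Wild type library was 5.77% for line 9, 7.07% for line 12 and 5.43% for line 47, so for one line by itself such a separation was common.

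In the fit across all transcripts, which estimates the spread of each transcript from all 4 genotypes, the log2 fold changes of the isoforms lay between −1.06 and −0.44, and no member passed an adjusted p of 0.05 in any line. The fit was the quasi-likelihood test of edgeR, adjusted by Benjamini-Hochberg over the 38364 transcripts, and all 3 members passed its minimum of 10 counts. For PGSC0003DMT400064730 the log2 fold change was −0.66 ± 0.19 in line 9 (SE, adjusted p = 0.318 by edgeR), −1.06 ± 0.19 in line 12 (adjusted p = 0.0834) and −0.95 ± 0.19 in line 47 (adjusted p = 0.188). For PGSC0003DMT400064729 it was −0.44 ± 0.24, −1.01 ± 0.24 and −1.01 ± 0.24 (adjusted p = 0.53, 0.199 and 0.293 by edgeR). Its value for line 9 was −0.25 without line 9 replicate 1 and −0.62 without line 9 replicate 2. For PGSC0003DMT400064731 the log2 fold change was −0.44 ± 0.19, −0.83 ± 0.19 and −0.84 ± 0.19 (adjusted p = 0.457, 0.19 and 0.264 by edgeR). In line 9 it too was −0.25 without line 9 replicate 1 and −0.62 without line 9 replicate 2. The count of members called lower was thus 0 of 3 in each line, where 0.0156%, 0.0104% and 0.0156% of all transcripts were called lower in lines 9, 12 and 47. At an unadjusted p of 0.05, PGSC0003DMT400064730 and PGSC0003DMT400064731 passed in all 3 lines and PGSC0003DMT400064729 in lines 12 and 47. That threshold was passed, in either direction, by 10.5%, 11.2% and 5.33% of all transcripts in lines 9, 12 and 47, so for lines 9 and 12 it was common. DESeq2, by contrast, called all 3 isoforms lower in line 12 (adjusted p between 0.000455 and 0.0185) and in line 47 (between 0.00429 and 0.038), and none in line 9. DESeq2 called 0.235%, 0.493% and 0.232% of all transcripts lower in lines 9, 12 and 47. In line 12, PGSC0003DMT400064730 had an adjusted p of 0.0478 by edgeR without Wild type replicate 3.

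With the 3 lines averaged, the log2 fold change was −0.89 ± 0.15 for PGSC0003DMT400064730 (adjusted p = 0.0567 by edgeR), −0.82 ± 0.18 for PGSC0003DMT400064729 (adjusted p = 0.264) and −0.71 ± 0.15 for PGSC0003DMT400064731 (adjusted p = 0.229). None of the 3 was called, and 0.0287% of all transcripts were called lower. Their unadjusted p were 5.28e-05, 0.000763 and 0.000525, and all 3 were called by DESeq2 (adjusted p = 0.000279, 0.0379 and 0.0213), where 8.38% of all transcripts had an unadjusted edgeR p under 0.05 in either direction and 0.19% were called lower by DESeq2. The call for the representative isoform turned on 1 library, since its adjusted p was 0.0391 by edgeR without line 12 replicate 1. With the 3 isoforms summed to 1 row before the fit, the log2 fold change was −0.80 ± 0.15 (adjusted p = 0.145 by edgeR, 0.0047 by DESeq2).

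The library tag moved with the genotype. With the tag as a term of the edgeR fit, the averaged log2 fold changes were −0.56 for PGSC0003DMT400064730, −0.33 for PGSC0003DMT400064729 and −0.41 for PGSC0003DMT400064731, each with an adjusted p of 0.943. By line, PGSC0003DMT400064729 was then at 0.20 in line 9, −0.37 in line 12 and −0.82 in line 47, so its direction in line 9 turned. PGSC0003DMT400064730 was at −0.23, −0.63 and −0.82, and PGSC0003DMT400064731 at −0.06, −0.45 and −0.72, in the same order. That fit contrasts the tags only through line 47. Among the L6 libraries alone, the 2 from line 47 were both below all 3 Wild type libraries for each isoform, by 11.7 CPM for PGSC0003DMT400064730, 11.3 CPM for PGSC0003DMT400064729 and 12.5 CPM for PGSC0003DMT400064731 on average. With 2 against 3 libraries the smallest exact p is 0.2, which each of them reached. The share of all transcripts that separate this way in these libraries was not computed, so how common it is was not shown.

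**Figure D2:**
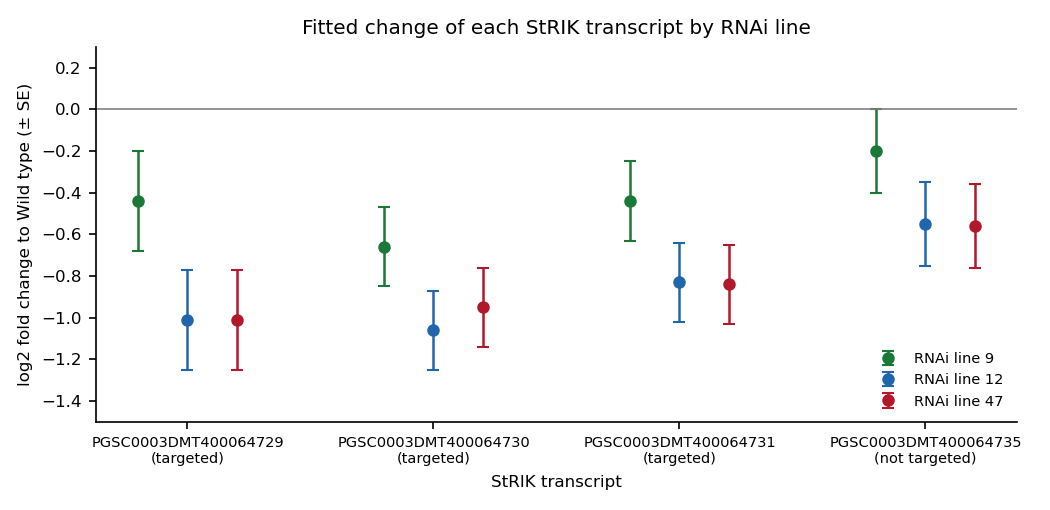
Fitted log2 fold change of each *StRIK* transcript to the Wild type in the 3 RNAi lines, with bars of 1 SE from edgeR. The targeted isoforms lie between −0.44 and −1.06, line 9 is nearest to 0 for every transcript, and PGSC0003DMT400064735 lies between −0.20 and −0.56.

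Differences between the lines themselves were tested jointly. PGSC0003DMT400064729 differed most, with log2 differences of −0.57 ± 0.24 for line 12 against line 9 and −0.56 ± 0.24 for line 47 against line 9. Its joint test gave an unadjusted p of 0.0463 and an adjusted p of 0.434 by edgeR. For PGSC0003DMT400064730 and PGSC0003DMT400064731 the adjusted p were 0.539 and 0.505. None of the members was called, and 0.0417% of all transcripts were. Between lines 12 and 47 the 3 isoforms differed by 0.11 at most on the log2 scale (SE 0.19).

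Each of the 3 isoforms held between 26.4% and 42.7% of their sum in every library. As a share of the 3-isoform sum, PGSC0003DMT400064731 held 37.4 ± 1.88%, PGSC0003DMT400064730 held 31.8 ± 1.55% and PGSC0003DMT400064729 held 30.7 ± 0.525% in the Wild type (SD, n = 3). In the RNAi libraries the shares were 39.9 ± 1.91%, 30.1 ± 2.60% and 30.1 ± 2.39% (SD, n = 9). PGSC0003DMT400064731 had the most effective counts of the *StRIK* transcripts in all 12 libraries. The other 2 members changed places, PGSC0003DMT400064729 being above PGSC0003DMT400064730 in 5 of the 12.

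PGSC0003DMT400064731 made up 35.2%, 38.5% and 38.5% of the sum in Wild type replicates 1 to 3. It made up 36.7%, 39.5% and 40.4% in line 9, 38.3%, 41.8% and 42.7% in line 12 and 41.3%, 39.7% and 38.2% in line 47. Its share was above every Wild type value in 6 of the 9 RNAi libraries and within the Wild type range in the other 3, so the groups overlapped. The difference was 2.45 percentage points, with a 95% interval from −0.382 to 5.37 (exact permutation test, two-sided p = 0.109, n = 9 and 3, adjusted p = 0.327 over the 3 shares). It was 1.37 points without Wild type replicate 1 and 0.579 points as a share of all 4 *StRIK* transcripts.

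PGSC0003DMT400064730 made up 33.6%, 31.4% and 30.6% of the sum in the Wild type. It made up 33.0%, 27.9% and 26.4% in line 9, 31.0%, 27.7% and 30.2% in line 12 and 32%, 28.3% and 33.8% in line 47. Its share was below every Wild type value in 5 RNAi libraries and above every one in 1. The difference was −1.78 percentage points (95% interval −5.27 to 1.97, exact permutation test, two-sided p = 0.291, n = 9 and 3, adjusted p = 0.436 over the 3 shares). Without Wild type replicate 1 it was −0.919 points.

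PGSC0003DMT400064729 made up 31.2%, 30.2% and 31% of the sum in the Wild type. It made up 30.3%, 32.6% and 33.2% in line 9, 30.7%, 30.4% and 27.1% in line 12 and 26.6%, 32.0% and 28% in line 47. Its share was above every Wild type value in 3 RNAi libraries and below every one in 3. The difference was −0.666 percentage points (95% interval −3.84 to 2.19, exact permutation test, two-sided p = 0.691, n = 9 and 3), and it ranged from −1.05 to −0.227 points with single libraries left out.

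The intervals of the 3 differences therefore reached no further than 5.37 percentage points in either direction, and none of the tests showed a difference in proportions. For single libraries the 95% Wilson interval of a share was a few points wide, for example 23.4 to 30.0% for the lowest share of PGSC0003DMT400064729 (line 47 replicate 1) and 38.4 to 45.3% for PGSC0003DMT400064731 in line 12 replicate 2. No RNAi library had an interval wholly outside those of the Wild type for any member. These intervals cover counting error only, neither copies made by PCR nor the division of shared reads. Among the 3 lines no difference in the shares passed the exact permutation test over the 9 RNAi libraries (p = 0.279, 0.546 and 0.446 for PGSC0003DMT400064729, PGSC0003DMT400064730 and PGSC0003DMT400064731). Within tag L6, the 2 line 47 libraries differed from the Wild type by −0.779, −0.794 and 1.57 points in the same order.

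**Figure D3:**
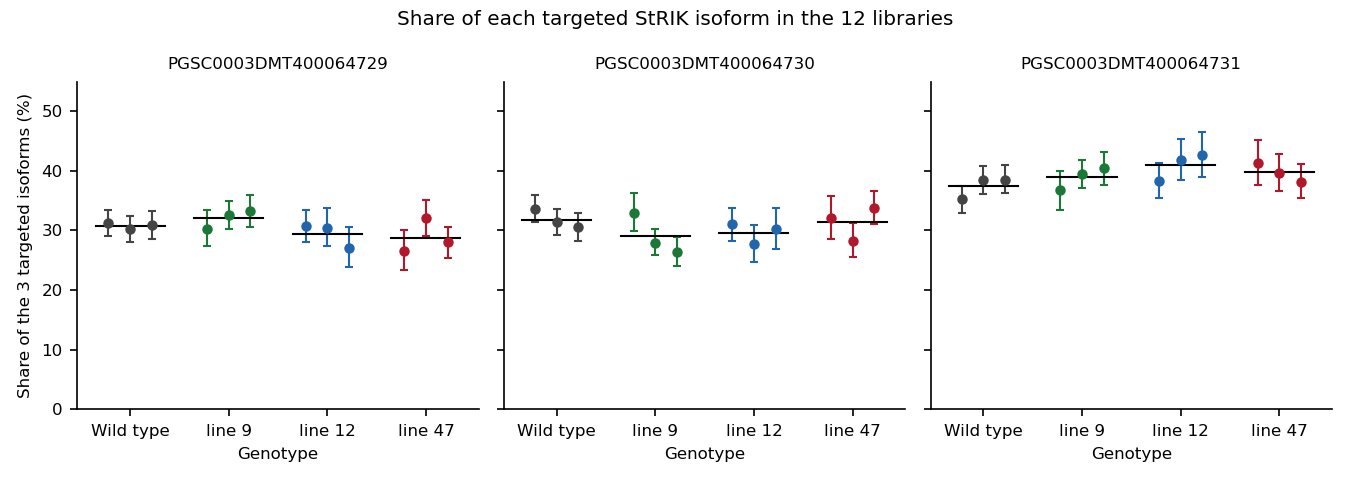
Share of each targeted isoform in the summed effective counts of the 3, in percent, per library with its 95% Wilson interval. The black line is the mean of the 3 libraries of a genotype; the RNAi and Wild type points overlap for every isoform, and PGSC0003DMT400064731 holds the largest share throughout.

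Pairwise ratios of the isoforms, which do not depend on the denominator of the shares, were compared as well. PGSC0003DMT400064731 had 1.18 ± 0.113 times the effective counts of PGSC0003DMT400064730 in the Wild type and 1.34 ± 0.153 times in the RNAi libraries (SD, n = 3 and 9), with a 95% interval of the difference from −0.0944 to 0.363 (exact permutation test, p = 0.136). The ratio of PGSC0003DMT400064729 to PGSC0003DMT400064730 was 0.967 ± 0.0408 and 1.01 ± 0.156 (interval −0.134 to 0.245, exact permutation test, p = 0.655). Pooled over the lines, the spread of both ratios was wider in the RNAi libraries than in the Wild type. Within lines 9, 12 and 47 the coefficient of variation of the first ratio was 15.9%, 9.9% and 10.7%, against 9.56% in the Wild type. For the second ratio it was 15.8%, 10.1% and 18.8%, against 4.22%. The RNAi libraries also had fewer *StRIK* counts, and whether this bears on the spread was not tested.

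Across the 9 RNAi libraries the isoforms went up and down together. On log2 (CPM + 0.5), PGSC0003DMT400064729 and PGSC0003DMT400064731 had a Pearson r of 0.968 (exact permutation p = 3.86e-05, adjusted p = 0.00027 over 7 relations) and a Spearman rho of 0.95 (exact permutation p = 0.000353). PGSC0003DMT400064729 and PGSC0003DMT400064730 had r = 0.877 and rho = 0.767 (exact permutation p = 0.00227 and 0.0214, adjusted p = 0.00529 and 0.0299). PGSC0003DMT400064730 and PGSC0003DMT400064731 had r = 0.838 and rho = 0.783 (exact permutation p = 0.00424 and 0.0172, adjusted p = 0.00613 and 0.0299). Without the 2 libraries farthest from the median, r was 0.931, 0.780 and 0.664 for these pairs in the order given. Within the 7 libraries of tag L7 it was 0.971, 0.937 and 0.882. The isoforms share reads, so part of each value is common to the pair. The permutations treat the 9 libraries as exchangeable, although they belong to 3 lines. Differences between lines therefore enter these r and p.

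The share of PGSC0003DMT400064729 was larger in the RNAi libraries with more *StRIK*. Its share and the summed level had r = 0.832 and rho = 0.900 (exact permutation p = 0.00438 and 0.00203, adjusted p = 0.00613 and 0.00473, n = 9). Without the 2 farthest libraries r was 0.764, and within tag L7 it was 0.913. The summed level contains the isoform itself, so these measures are not independent. Differences between the lines enter these r and p as well. The shares of PGSC0003DMT400064730 and PGSC0003DMT400064731 had r = −0.472 and −0.398 with the sum (exact permutation p = 0.201 and 0.293), which did not pass.

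The transcript outside the fragment, PGSC0003DMT400064735, was lower in the RNAi libraries by less than the members were. It was at 15.6, 14.9 and 18.4 CPM in the Wild type. It was at 11.6, 16.2 and 14.6 CPM in line 9, at 13.5, 9.90 and 10.1 CPM in line 12 and at 9.09, 13.9 and 10.2 CPM in line 47. In 8 of the 9 RNAi libraries it was under every Wild type value, and line 9 replicate 2 lay within the Wild type range. The difference of the means was −4.18 CPM (95% interval −7.48 to −0.289, exact permutation test, two-sided p = 0.0364, n = 9 and 3). This call was lost without any single Wild type library (exact permutation p = 0.0727, 0.0727 and 0.145 without replicates 1, 2 and 3). With fewer Wild type libraries the test also has fewer arrangements, so its p are coarser. Its log2 fold change was −0.20 ± 0.20 in line 9, −0.55 ± 0.20 in line 12 and −0.56 ± 0.20 in line 47 (adjusted p = 0.74, 0.362 and 0.758 by edgeR), and −0.44 ± 0.16 for the 3 lines averaged (adjusted p = 0.517).

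Its share of all 4 *StRIK* transcripts puts that contrast in a single value per library. The share also depends on how shared reads were divided. Because the lines were selected for low *StRIK*, its test is not independent of that selection. PGSC0003DMT400064735 held 15%, 15.2% and 18.2% of the 4-transcript sum in the Wild type. It held 20.4%, 18.3% and 19.4% in line 9, 20.9%, 19.0% and 21.2% in line 12 and 20.4%, 21.9% and 17.3% in line 47. The share was above every Wild type value in 8 of the 9 RNAi libraries, and line 47 replicate 3 lay below Wild type replicate 3. The means were 19.9 ± 1.47% and 16.1 ± 1.77% (SD, n = 9 and 3), a difference of 3.72 percentage points with a 95% interval from 1.19 to 6.17 (exact permutation test, two-sided p = 0.0182). Adjusted over the shares of the 4 transcripts, the p was 0.0727. The unadjusted p was also 0.0727 without either of Wild type replicates 1 and 2 (exact permutation test, again with fewer arrangements). No RNAi library had a Wilson interval of this share wholly above all those of the Wild type. Among the 3 lines no difference in this share passed (exact permutation p = 0.75). In the 2 line 47 libraries of tag L6 it averaged 3.46 points above the Wild type (exact permutation test, p = 0.4). Of these 2, replicate 2 was above every Wild type value and replicate 3 was within the Wild type range.

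PGSC0003DMT400064735 followed the targeted isoforms from library to library. Over the 9 RNAi libraries its level and the summed level of the members had r = 0.909 and rho = 0.95 (exact permutation p = 0.000314 and 0.000353, adjusted p = 0.0011 and 0.00123). Without the 2 farthest libraries r was 0.813, and within tag L7 it was 0.975. Here too the p treat libraries of different lines as exchangeable. How many reads this shorter transcript shares with the members was not measured here.

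**Figure D4:**
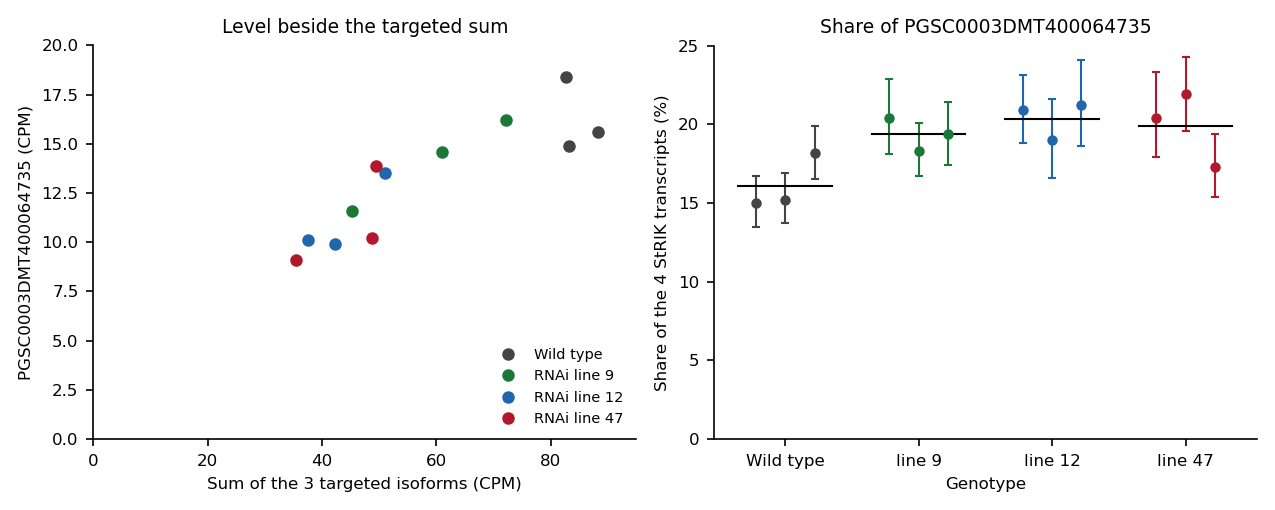
PGSC0003DMT400064735 beside the 3 targeted isoforms. Left, its CPM against the summed CPM of the members, 1 point per library; right, its share of the 4 *StRIK* transcripts in percent with 95% Wilson intervals and a black line for the genotype mean, from 15% in Wild type replicate 1 to 21.9% in line 47 replicate 2.

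*StRIK* stood in the upper part of the periderm transcriptome in all libraries. By effective counts, PGSC0003DMT400064731 ranked 5397, 5349 and 5089 in Wild type replicates 1 to 3, PGSC0003DMT400064730 ranked 5659, 6358 and 6199, and PGSC0003DMT400064729 ranked 6017, 6575 and 6154. Between 37491 and 37870 transcripts had a count above 0 in these libraries. The members thus exceeded 86.0 ± 0.474%, 83.9 ± 1.04% and 83.4 ± 0.868% of them (SD, n = 3). The median transcript above 0 had 72.8 to 77.4 effective counts in the Wild type, while the members had from 482.3 to 641.2.

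In the RNAi libraries the members remained above the median transcript, at lower ranks. PGSC0003DMT400064731 ranked from 5545 to 9549, PGSC0003DMT400064730 from 7416 to 11280 and PGSC0003DMT400064729 from 6563 to 12536. The lowest percentile of any member was 67.0, that of PGSC0003DMT400064729 in line 47 replicate 1, where it had 179.7 effective counts. Line 9 replicate 2 had the highest ranks among the RNAi libraries for every member, and its rank for PGSC0003DMT400064729 (6563) was within the Wild type range.

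The 3 isoforms summed would have ranked between 1934 and 2185 in the Wild type, above 94.6 ± 0.389% of the transcripts with counts (SD, n = 3). In the RNAi lines the summed rank was between 2178 and 4918. The mean percentile of the sum was 92.3 ± 2.35% in line 9, 89.3 ± 2.09% in line 12 and 89.8 ± 2.41% in line 47 (SD, n = 3). This sets a sum over isoforms against single transcripts of other genes, whose isoforms were not summed. PGSC0003DMT400064735 ranked between 7997 and 9505 in the Wild type and was the lowest of the 4 *StRIK* transcripts in all 12 libraries. Ranks by count favour long transcripts, and ranks per length were not computed here.

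**Figure D5:**
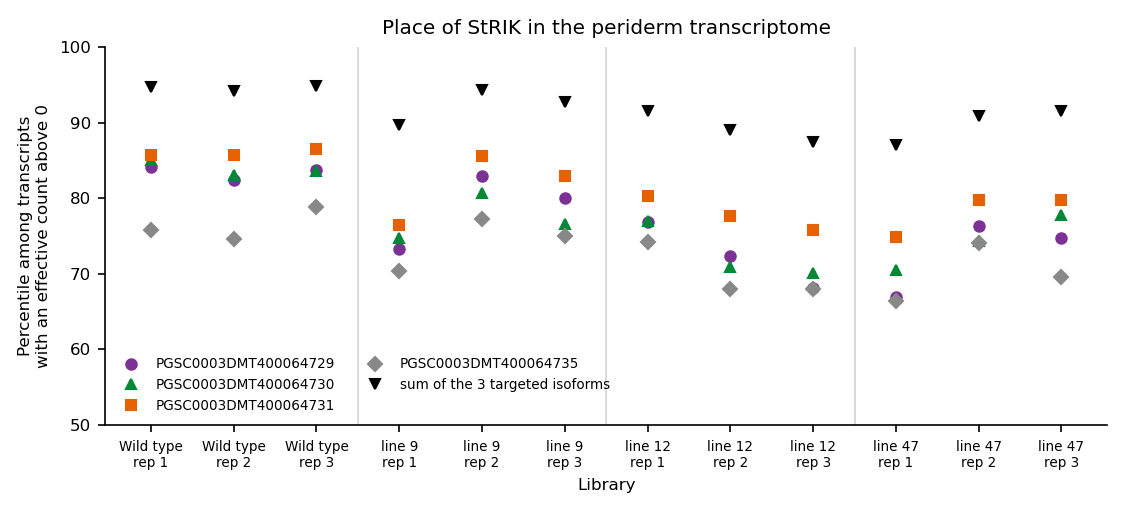
Percentile of each *StRIK* transcript and of the summed targeted isoforms among the transcripts with an effective count above 0, by library (vertical axis from 50 to 100). The sum lies between 87.1 and 94.9, and the targeted isoforms lie between 67.0 and 86.6.

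The transcripts whose level over the 12 libraries was most like summed *StRIK* were sought among 27704 others with a mean of at least 1 CPM, by Pearson r on log2 (CPM + 0.5). The highest were PGSC0003DMT400014965 and PGSC0003DMT400009476, both with r = 0.909. PGSC0003DMT400014965 lay between 12.5 and 13.3 CPM in the Wild type and between 8.26 and 13.7 CPM in the RNAi libraries. PGSC0003DMT400009476 lay between 15.2 and 16.2 CPM and between 8.41 and 16 CPM, so in both the groups overlapped. The lowest were PGSC0003DMT400078735 (r = −0.937) and PGSC0003DMT400037303 (r = −0.914). PGSC0003DMT400078735 lay between 132 and 138 CPM in the Wild type and between 147 and 212 CPM in the RNAi libraries, whereas PGSC0003DMT400037303 overlapped, with 61.0 to 65.0 CPM and 60.4 to 86.0 CPM. PGSC0003DMT400064735, with r = 0.902, came next after 3 transcripts with a higher r. These r are extremes of a large search over libraries that fall into 2 genotype classes, and they are given as a description.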

How the data were processed

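Periderm RNA was sequenced on an Illumina HiSeq instrument in 12 libraries, 3 per genotype. The authors checked reads with FastQC 0.11.2, mapped them with Bowtie 2 to the Group Phureja transcriptome and deposited the effective counts of eXpress 1.5.1, which are estimated counts per transcript, not normalized between libraries. Per the submitters' processing notes, Cufflinks was also used. The authors' comparison with baySeq kept 6 RNAi libraries for their low *StRIK* level. All 9 RNAi libraries were kept here, to avoid that choice among libraries, but the lines themselves had been selected for low *StRIK* by RT-qPCR.

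Counts were rounded to whole numbers, and transcripts whose counts summed to at least 10 over the 12 libraries were tested with edgeR 4.0.16 in R 4.3.3 (TMM, 4 genotypes, glmQLFit, glmQLFTest, Benjamini-Hochberg adjustment, threshold 0.05), after tests on simulated counts. Shares, CPM and ranks used unrounded effective counts and two-sided exact permutation tests (Python 3.11.15, scipy 1.17.1). The intervals hold the shifts that such a test did not reject at 0.05. The exact tests of CPM were added after the data were seen. The members and lists were chosen with earlier results of these data known. Named transcripts were the 3 members, PGSC0003DMT400064735, and the 2 with the highest and the 2 with the lowest r with summed *StRIK*. RIK partner and suberin genes could not be matched to these identifiers. No source says how the replicates of a genotype were separated beyond being biological replicates, so p-values measure the spread between these libraries. No pair of libraries held identical values.

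Alternatives were RLE size factors, no minimum count, filterByExpr, DESeq2 1.42.0, limma-voom (limma 3.58.1), the replicate number as a block, the library tag as a covariate, the authors' 6 RNAi libraries, tag L6 only, other denominators and scales of the shares, and each library left out.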

Additional observations from a re-analysis of the deposited data

How the results depend on the processing

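The difference of the members to the Wild type kept its direction under each alternative but 1, while the call depended on the tool. Like edgeR, limma-voom called none of the members in any line. Of the 38364 transcripts, limma-voom called only 5, 3 and 8 lower in lines 9, 12 and 47, and 12 for the lines averaged. For the 3 lines averaged its adjusted p were 0.262 (PGSC0003DMT400064729), 0.0706 (PGSC0003DMT400064730) and 0.233 (PGSC0003DMT400064731). DESeq2 gave adjusted p under 0.05 where edgeR did not: for the 3 lines averaged at log2 fold changes of −0.82 (PGSC0003DMT400064729), −0.89 (PGSC0003DMT400064730), −0.70 (PGSC0003DMT400064731) and −0.80 (the summed row), in line 12 at −1.02, −1.07, −0.84 and −0.97, and in line 47 at −1.0, −0.95, −0.84 and −0.92, in the same order. The cause was not tested. With the library tag as a covariate, line 9 turned to 0.20 for PGSC0003DMT400064729 and to 0.20 for PGSC0003DMT400064735, with adjusted p of 0.908 and 0.902. With each library left out, PGSC0003DMT400064730 lay between −0.95 and −0.82 for the lines averaged and between −1.24 and −0.98 in line 12, where its edgeR adjusted p was 0.0478 without Wild type replicate 3.

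On the CPM scale, tag L6 alone (3 Wild type and 2 line 47 libraries, which cannot reach p under 0.05) gave −11.3, −11.7, −12.5 and −4.25 CPM for PGSC0003DMT400064729, PGSC0003DMT400064730, PGSC0003DMT400064731 and PGSC0003DMT400064735, and 3.46 points for the share of the last. That share was above every Wild type value in only 1 of the 2 line 47 libraries. Leaving out libraries, PGSC0003DMT400064735 lay between −4.86 and −3.14 CPM and its share difference between 3.16 and 4.74 points. For the 3 targeted isoforms, no share reached p under 0.05 under any of its alternatives. Among transcripts with at least 10 counts, the Wild type percentiles were 79.39 (PGSC0003DMT400064729), 79.98 (PGSC0003DMT400064730), 82.6 (PGSC0003DMT400064731) and 93.3 (the sum).

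The replicate numbers did not pair the libraries: same-numbered deviations correlated between −0.28 and 0.253, with 3 of 18 pairs over 0.1 and 2 of 12 libraries closest to their own number. With the replicate block the averaged log2 fold changes were −0.84, −0.89 and −0.72 for the members (adjusted p = 0.455, 0.2 and 0.357 by edgeR), and the exact permutation p within replicate numbers was 0.0625 for both the level (−4.18 CPM) and the share (3.72 points) of PGSC0003DMT400064735. Counts of called transcripts moved more than the members did. For the 3 lines averaged edgeR called 34, DESeq2 165, the replicate block 17, the authors' 6 RNAi libraries 18, and 9 to 86 with a library left out. For line 9 edgeR called 29, DESeq2 254, the block 16, the tag covariate 18 and 17 to 66 with a library left out. For line 12 these counts were 21, 402, 11, 7 and 6 to 203, for line 47 they were 29, 199, 54 with the tag and 12 to 54, and among the lines 16, 687, 10 with the tag and 10 to 47. Ranks per length were not run.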
